A study of Caenorhabditis elegans with 2 samples.

Results

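The mitochondrial genome of Caenorhabditis elegans carries 12 protein-coding genes in the reference gene table, and 8 of them had a probe set on the arrays analysed here: ND1, ND4, ND5, CYTB, COX1, COX2, COX3 and ATP6. They were taken by these symbols from the platform's probe-to-gene table. Each had 1 probe set, so they account for 8 of 22548 worm probe sets and for 8 of the 17118 genes that had a probe set of their own. ND2, ND3, ND4L and ND6, the 2 ribosomal RNA genes and the 22 transfer RNA genes of the mitochondrial DNA were not analysed here. The group was chosen because its values had been seen to be low after nanotube exposure, so its level is given as a description and carries no test.

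The exposed animals were wild-type N2 worms exposed for 48 hr at 22 °C to 500 μg/mL of a-SWCNT, amide single-walled carbon nanotubes, from the first larval stage (L1). The control animals were N2 worms kept for the same time at the same temperature without nanotubes. Stocks of both had been maintained at 13 °C on E. coli OP50, and both samples were whole worms labelled as L4, the last larval stage. Each group had 1 array, so no value has a replicate or a p-value, and precision is limited by the number of arrays.

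Mitochondrial DNA encodes core subunits of complexes I, III, IV and V of the respiratory chain, the membrane machinery that passes electrons from NADH to oxygen and uses the resulting proton gradient to make ATP. The remaining subunits of these complexes, and every subunit of complex II, are encoded in the nucleus, made in the cytosol and imported. Mitochondrial transcripts are made by a dedicated RNA polymerase and translated by mitochondrial ribosomes, and in worms the germline holds a large part of the mitochondrial DNA of an adult.

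The deposited signals were not at a common level on the arrays. Their trimmed means, which leave out the highest 2% and the lowest 2% of signals, were 84.3 for the a-SWCNT array and 211 for the control array. The a-SWCNT signals were therefore multiplied by 2.50, and scaled signals are meant below unless deposited ones are named. A floor of 56.7, set at the pooled median signal of the worm probe sets, separates measured from unmeasured values, and all 8 genes were measured on both arrays. Log2 ratios are a-SWCNT over control. As a guide to error, the log2 ratios of the probe sets of 1625 genes with 2 measured probe sets differed by a median of 0.42, with a 95th percentile of 1.37. The corresponding SD of 1 probe set was 0.47, and 0.42 for the 131 genes with both probe sets in the brightest 10% by control signal. These values describe disagreement within the arrays and not the spread between cultures.

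Transcripts of 7 of the 8 mitochondrial genes were lower in a-SWCNT worms and 1, ND5, was higher. Among the 7, 4 were at least 2-fold lower (ND1, CYTB, COX1 and COX2), and 0 of the 8 were at least 2-fold higher. Of all 9382 genes measured, 2.88% were at least 2-fold lower and 52.2% were below 0. Because the group was picked for these values, nothing is read from that contrast. The median log2 ratio of the 8 genes was -1.05, which is 2.07-fold lower, against -0.02 over all measured genes. A difference in the number of cells or mitochondria and a difference in transcript per mitochondrion cannot be told apart in whole worms.

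Complex I, the NADH dehydrogenase, was represented by 3 genes that went different ways. ND1, a membrane subunit near the ubiquinone site, had a signal of 1445 in a-SWCNT worms and 3835 in control worms. This was 2.65-fold lower, a log2 ratio of -1.41. A share of 1.24% of the 12020 measured probe sets had a ratio as low as that of ND1, where 4.43% were at least 2-fold lower. Its probe set is the 1 of the 8 whose identifier carries a letter suffix, a type that may bind several similar transcripts. ND4, a proton-pumping subunit of the membrane arm, had 4970 in a-SWCNT worms and 6875 in control worms. Its log2 ratio was -0.47, a size close to the SD of 1 probe set, and 19.6% of measured probe sets were as low.

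ND5, the other proton-pumping subunit of complex I in this set, had a signal of 124 in a-SWCNT worms and 67.5 in control worms, a log2 ratio of 0.88. Both signals were close to the floor, the a-SWCNT one 2.19 times and the control one 1.19 times as high. As deposited, before scaling, ND5 had 49.7 in a-SWCNT worms and 67.5 in control worms, so the direction of its ratio rests on the scaling. On the control array ND5 lay at percentile 52.9 of all worm signals, while each of the other 7 genes lay at percentile 93.5 or above. Among 2682 measured probe sets with control signals from 50 to 100, 74 (2.76%) had a ratio as high as ND5.

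Complex III was represented by CYTB, which encodes cytochrome b, the subunit that holds both quinone sites of the complex. Its signal was 2063 in a-SWCNT worms and 4547 in control worms, 45.4% of the control level, with a log2 ratio of -1.14. A ratio as low was found in 2.84% of measured probe sets.

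The 3 genes of complex IV, cytochrome c oxidase, were all lower. COX1, the catalytic subunit that holds the haem and copper centre where oxygen is reduced, had 1778 in a-SWCNT worms and 5026 in control worms. At 2.83-fold lower and a log2 ratio of -1.50 it was the lowest of the 8 genes, and 0.88% of measured probe sets were as low. COX2, which takes electrons from cytochrome c, had 664 in a-SWCNT worms and 1819 in control worms, 2.74-fold lower with a log2 ratio of -1.45. COX3, the third core subunit, had 3779 in a-SWCNT worms and 7016 in control worms. Its log2 ratio of -0.89, or 1.86-fold lower, stayed short of the 2-fold mark, and 6.20% of measured probe sets were as low.

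Complex V, the ATP synthase, was represented by ATP6, a subunit of the proton channel. ATP6 had 534 in a-SWCNT worms and 1039 in control worms, a log2 ratio of -0.96 and 1.94-fold lower, just short of the 2-fold mark. A ratio as low was found in 4.98% of measured probe sets.

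**Figure D1:**
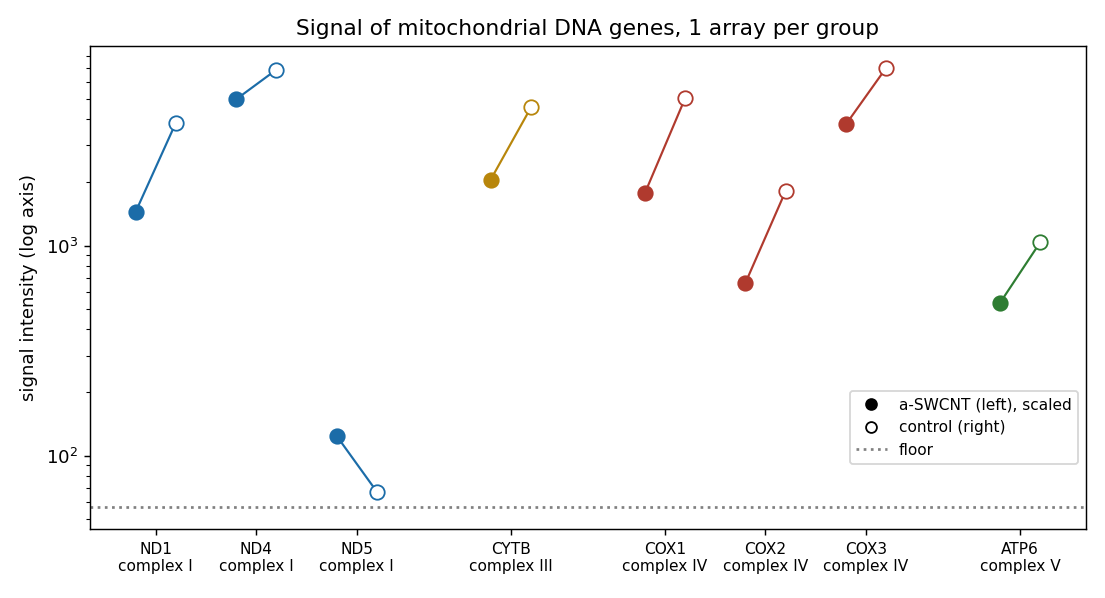
Signal intensity (log axis) of the 8 mitochondrial genes, grouped by respiratory complex, with the scaled a-SWCNT array as a filled point on the left and the control array as an open point on the right of each pair. Lines fall to the left for the 7 genes that were lower in a-SWCNT worms, and only ND5, at 124 in a-SWCNT and 67.5 in control worms near the dotted floor, runs the other way.

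The differences among the genes other than ND5 lay within the range found between probe sets of 1 gene. Among the 21 pairs that leave ND5 out, 12 differed by more than 0.42, the median for probe sets of the same gene. The largest difference in log2 ratio was 1.03, between ND4 and COX1, and 0 pairs passed the 95th percentile of 1.37 for probe sets of the same gene. Of the 7 pairs with ND5, 6 passed it, and the pair with ND4, at 1.35, did not. The SD over the 7 lower genes was 0.37, and over all 8 it was 0.79. The order from COX1, COX2 and ND1 through CYTB, ATP6 and COX3 to ND4 thus rests on differences that do not pass that 95th percentile.

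In their order along the mitochondrial genome, as the reference gene table numbers it, the 7 lower genes went from ND1 to COX2, with ND5 after them. The genome is circular and only ND5 was not lower. The other 7 therefore form 1 run of measured genes wherever ND5 lies, and nothing is read from that run. The first member, ND1, was followed by ATP6, and then, after ND2, by CYTB, COX3, ND4, COX1 and COX2, with ND3 and ND5 last. The neighbours COX1 and COX2 differed by 0.05 in log2 ratio, whereas the neighbours ND4 and COX1 differed by -1.03 (COX1 minus ND4). ND5 stood 2.34 above COX2, the nearest member before it.

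**Figure D2:**
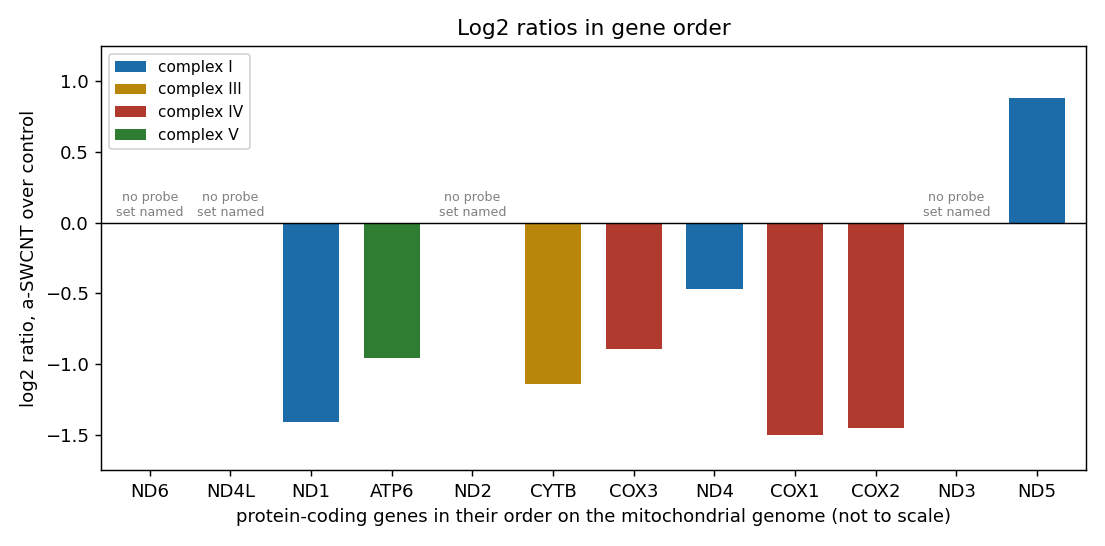
Log2 ratio of a-SWCNT over control (vertical axis) for the protein-coding genes in their order on the mitochondrial genome, not to scale, coloured by complex; 4 genes had no probe set named. Bars from ND1 to COX2 run downward, from -0.47 at ND4 to -1.50 at COX1, and ND5 at the end of the order runs upward to 0.88.

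Most of the mitochondrial genes were bright, and the shares for probe sets of like brightness are given beside their counts as a description, from which nothing is read because the genes were chosen for these ratios. On the control array 6 of the 8 probe sets lay in the brightest 10% of measured probe sets, and 4 of those 6 were at least 2-fold lower, against 5.32% of the 1202 probe sets of that brightness. The median log2 ratio of these 1202 was 0.13. When brightness was taken as the mean log2 signal of both arrays, 5 of the 8 lay in the brightest 10% and 3 of those were at least 2-fold lower, against 2.33%, with a median of 0.20 for all such probe sets. Within the brightest 10% by control signal, 1.33% of probe sets were as low as COX1 and 15.8% as low as ND4. The summed deposited signal of the 8 genes made up 0.181% of all worm signal on the a-SWCNT array and 0.384% on the control array, a share that does not depend on a scaling by 1 factor.

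**Figure D3:**
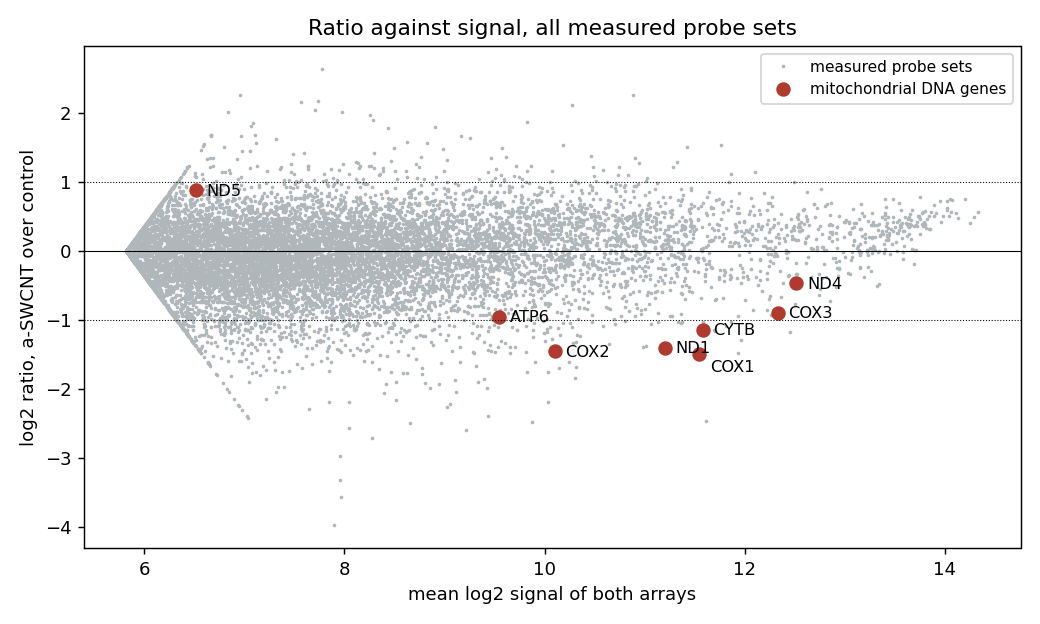
Log2 ratio of a-SWCNT over control against the mean log2 signal of both arrays for measured probe sets, with the 8 mitochondrial genes as large points and dotted lines at 2-fold. The 7 lower genes lie in the lower part of the cloud or at its underside, with ND4 inside it at -0.47, and ND5 lies at low signal near the wedge edge that the floor of 56.7 makes.

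The nuclear subunits of complexes I to V had a higher median log2 ratio, 0.24 over 67 genes. These include the 5 of complex II, which holds no mitochondrially encoded subunit. Of the 67, 47 were above 0 and 20 below, where 52.2% of all measured genes were below 0. At least 2-fold higher were 2 (1.42% of all measured genes were). At least 2-fold lower were 0 (2.88% of all measured genes were), which is near that share. Beside this, the median over the brightest 10% of measured probe sets was 0.13 by control signal and 0.20 by mean log2 signal. All 7 lower mitochondrial genes had ratios below that of the lowest nuclear subunit, ucr-2.3 of complex III (396 in a-SWCNT worms and 535 in control worms, log2 ratio -0.43). ND4, at -0.47, lay only just below it, and 19.6% of measured probe sets were as low as ND4. A single probe set of the nuclear gene nuo-4, at -0.99, was lower than ND4, COX3 and ATP6. The mitochondrial genes were chosen for their low ratios, so nothing is read from this or from their places within each complex below. The median of the mitochondrial genes minus that of the nuclear subunits was -1.29 in log2.

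By complex, the nuclear genes of complex I had the highest median, 0.34 over 32 genes, with 27 above 0 and 5 below. They ran from nuo-4 (-0.37, with probe sets at -0.99 and 0.26) and nuo-6 (-0.17) to ndub-8 (1.28) and ndua-2 (1.88). ndua-2 had 1741 in a-SWCNT worms and 474 in control worms, and ndub-8 had 3083 in a-SWCNT worms and 1266 in control worms. ND1 and ND4 lay below all 32 nuclear genes of complex I, whereas ND5 lay above 30 of them.

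Complex III had 9 nuclear genes at a median of 0.05, from ucr-2.3 and R07E4.3 (-0.38) to T27E9.2 (0.60) and T02H6.11 (0.84), and CYTB lay below all 9. Complex IV had 7 nuclear genes at a median of 0.24, from cox-5A (-0.07, with probe sets at -0.41 and 0.28) and cox-4 (0.02) to cox-6B (0.35) and cox-5B (0.41). COX1, COX2 and COX3 lay below all 7, and their median was lower by 1.69 in log2 than that of the nuclear genes. The mitochondrial minus nuclear values of complexes I, III and V were -0.81, -1.19 and -0.96, from 3, 1 and 1 mitochondrial genes. With so few genes each, and ND5 near the floor in complex I, no difference between the complexes is read from these values. Complex V had 14 nuclear genes at a median of 0.00, from Y82E9BR.3 (-0.38) and asb-2 (-0.34) to asg-2 (0.36) and hpo-18 (0.62), and ATP6 lay below all 14.

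Complex II, succinate dehydrogenase, has no mitochondrially encoded subunit. Its 5 nuclear genes had a median of -0.03, from mev-1 (-0.19), a membrane anchor subunit, and sdha-2 (-0.11) to sdhd-1 (0.34) and sdha-1 (0.71). The genes of cytochrome c, the carrier between complexes III and IV, gave 0.56 for the bright cyc-2.1 and -0.14 for cyc-2.2.

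**Figure D4:**
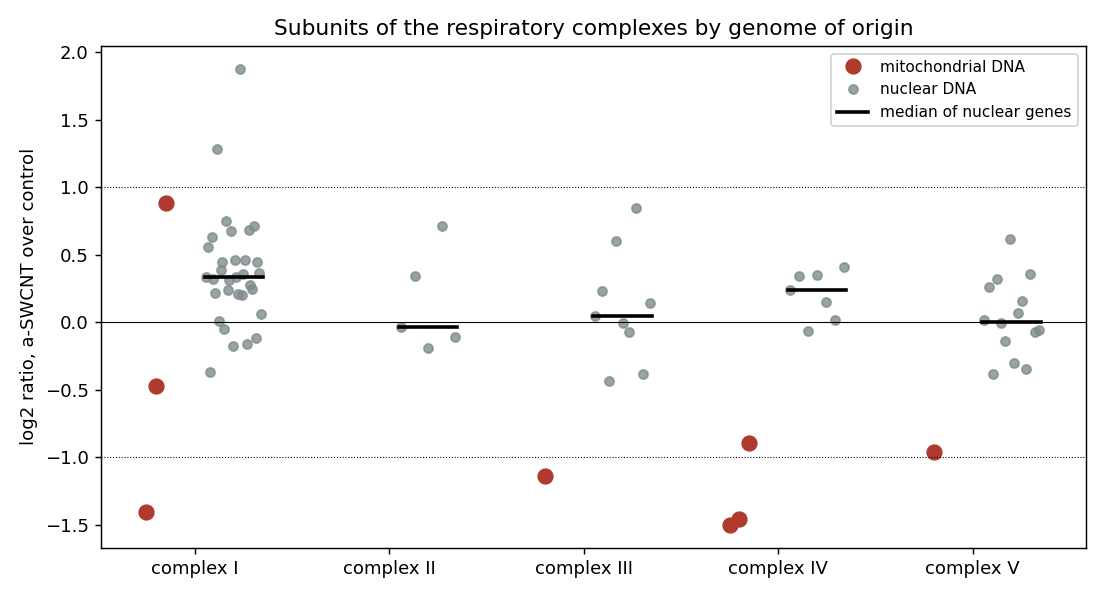
Log2 ratio of a-SWCNT over control for subunits encoded by mitochondrial DNA (large points, left) and by nuclear DNA (small points, right) in each respiratory complex, with bars at the nuclear medians and dotted lines at 2-fold. The mitochondrial genes of complexes III, IV and V lie below every nuclear subunit of their complex, and complex II has nuclear points only. The mitochondrial genes were chosen for low ratios, so their places are a description.

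Genes that maintain, transcribe and translate mitochondrial DNA were not low as a list. Of 36 names, 27 matched the reference table, 25 had a probe set of their own and 23 were measured. Of these 23, 12 were above 0 and 11 below, with a median of 0.09, where 52.2% of all measured genes were below 0. The 2-fold mark was reached by 0 of the 23. Over all measured genes, 2.88% reached it downward and 1.42% upward. A count of 0 is near those shares for a list of this size, so nothing is read from it. The mitochondrial RNA polymerase gene rpom-1 had 137 in a-SWCNT worms and 107 in control worms in its measured probe set (0.36). hmg-5, the worm relative of the packaging and transcription factor TFAM, had 179 in a-SWCNT worms and 205 in control worms (-0.19). The DNA polymerase gamma gene polg-1 was below the floor on both arrays.

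Other genes of this list were likewise within 2-fold, as were most measured genes. The single-stranded DNA-binding protein gene mtss-1 had a log2 ratio of 0.26, the helicase gene twnk-1 -0.04, and mma-1, the worm relative of the mitochondrial RNA-binding protein LRPPRC, 0.09. The elongation factor gene tufm-1 had 0.27 and 0.51 in its probe sets, and atfs-1, the transcription factor of the mitochondrial unfolded protein response, had -0.13. The extremes of the list were ears-2 (-0.48) and tufm-2 (-0.44) below and tsfm-1 (0.46) and slrp-1 (0.51) above 0. Of 57 measured genes for mitochondrial ribosomal proteins, 47 were above 0 and 10 below, with a median of 0.29, where 52.2% of all measured genes were below 0. At least 2-fold different in either direction were 0, again near the shares over all genes (2.88% lower and 1.42% higher). They ran from mrps-21 (-0.43) and mrpl-37 (-0.39) to mrpl-41 (0.98) and mrps-33 (0.99).

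Markers of other tissues and RNA measures are given beside the mitochondrial genes, and their part in the result was not tested. Over all measured genes, 52.2% were below 0 and 2.88% at least 2-fold lower. Of the 14 germline and oocyte markers, all measured, 8 were below 0 and 6 above, a split near that of all genes, and 3 were at least 2-fold lower, with a median of -0.27. Their summed signal was 6105 in a-SWCNT worms and 8483 in control worms. Lowest were gld-1, a translational repressor (-1.38), and cpg-1, an eggshell component (-1.26), and glp-1 (0.26) and puf-5 (0.27) were highest among genes measured on both arrays. Of the 10 body wall muscle markers, all measured, 9 were below 0 and 1 at least 2-fold lower, the myosin heavy chain gene unc-54 (-1.03), with a median of -0.44. Their summed signal was 40069 in a-SWCNT worms and 52718 in control worms. Among those measured on both arrays, myo-3 (-0.55) was next lowest, and unc-27 (-0.04) and mup-2 (0.22) were highest. lev-11 (-0.75), not measured on both arrays in every probe set, lay between unc-54 and myo-3.

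Markers of the other tissues also went both ways, and the hypodermal, pharyngeal and neuronal medians were below the germline median of -0.27. Below 0 were 6 hypodermal, 5 pharyngeal, 7 neuronal, 3 sperm and 3 intestinal markers, where 52.2% of all measured genes were. At least 2-fold lower were 1 hypodermal, 2 pharyngeal, 0 neuronal, 0 sperm and 0 intestinal markers, where 2.88% of all measured genes were. The 9 measured hypodermal markers had a median of -0.61 and summed to 22681 in a-SWCNT worms and 25457 in control worms, from bli-1 (-2.25) and che-14 (-0.91) to rol-6 (0.18) and dpy-17 (1.85). The 9 pharyngeal markers had a median of -0.37 and summed to 3881 in a-SWCNT worms and 3866 in control worms, from myo-2 (-1.30) and abu-10 (-1.13) to phat-5 (0.62) and myo-5 (0.79). The 9 measured neuronal markers had a median of -0.29 and summed to 6503 in a-SWCNT worms and 6291 in control worms. They ran from unc-64 (-0.89) and rab-3 (-0.33) to mec-7 (0.32, with probe sets at -0.31 and 0.94) and mec-12 (0.84). The 7 measured sperm markers had a median of 0.03 and summed to 38953 in a-SWCNT worms and 34917 in control worms, from gsp-4 (-0.72) and gsp-3 (-0.66) to msp-3 (0.18) and msp-31 (0.44). The 9 intestinal markers had a median of 0.22 and summed to 59963 in a-SWCNT worms and 43247 in control worms, from nhx-2 (-0.43) and ifb-2 (-0.10) to mtl-2 (0.64) and vha-6 (1.11). Markers of all 7 tissues were measured, as the whole-organism label has it, and eat-4 of neurons and spe-9 of sperm were below the floor on both arrays.

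RNA species and probe positions also differed between the arrays. The 5 probe sets of the nuclear ribosomal RNA gene rrn-3.1 had log2 ratios from -1.99 to -0.85, a range that takes in the ratios of 6 of the 7 lower mitochondrial genes. The other measured nuclear ribosomal RNA gene, rrn-3.56, went the other way, with 88.7 in a-SWCNT worms and 52.0, below the floor, in control worms. The control probe sets for worm ubiquitin had a 3′ to 5′ signal ratio of 23.1 on the a-SWCNT array and 14.3 on the control array, a wider gap between the probe positions in a-SWCNT worms. The other such ratios were lower in a-SWCNT worms: 1.96 on the a-SWCNT array and 2.41 on the control array for catalase, 0.899 on the a-SWCNT array and 1.13 on the control array for actin, and 0.687 on the a-SWCNT array and 0.779 on the control array for glyceraldehyde-3-phosphate dehydrogenase. The part of either measure in the ratios of the mitochondrial genes was not tested.

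The genes whose 2 signals were nearest to the median of the mitochondrial genes (1603 in a-SWCNT worms and 4176 in control worms) were found by distance in log2 signal over both arrays, among 8313 other genes. They were the actin gene act-3 (1833 in a-SWCNT worms and 3799 in control worms), unc-54 (1865 in a-SWCNT and 3796 in control worms), the collagen gene col-85 (1794 in a-SWCNT and 4967 in control worms), lep-5 (1776 in a-SWCNT and 3431 in control worms) and the major sperm protein gene msp-32 (1762 in a-SWCNT and 3376 in control worms, in the 1 of its probe sets measured on both arrays). With 2 arrays this says only that these probe sets had like signals.

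The direction of the 7 lower genes was the same under each scaling of the arrays that was tried. With the as-deposited signals set aside, their log2 ratios ranged from -1.67 to -1.37 for COX1, from -1.62 to -1.33 for COX2, from -1.58 to -1.28 for ND1, from -1.31 to -1.01 for CYTB, from -1.13 to -0.83 for ATP6, from -1.08 to -0.76 for COX3 and from -0.66 to -0.34 for ND4. ATP6 and COX3 thus fell on either side of 2-fold according to the scaling. ND5 ranged from 0.71 to 1.01 and passed 2-fold higher after quantile normalisation or scaling to the 75th percentile, whereas in the deposited signals it was at -0.44.

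**Figure D5:**
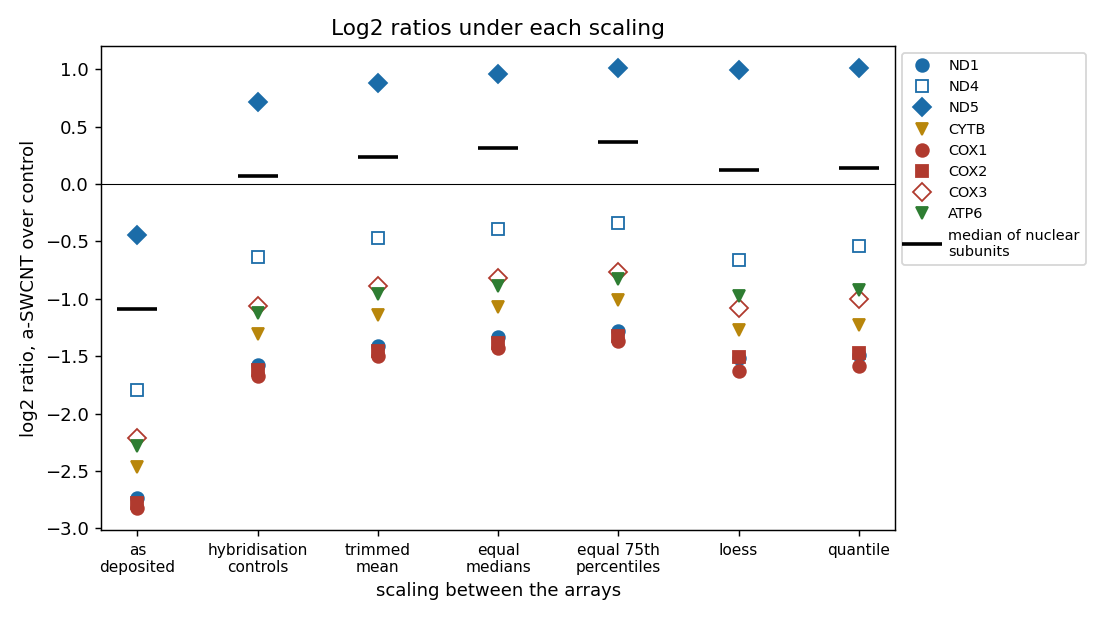
Log2 ratio of a-SWCNT over control for each mitochondrial gene (points) and the median of the nuclear subunits (bars) under 7 ways of scaling the arrays, including none. The gap between the mitochondrial genes other than ND5 and the nuclear median is present in every column, and ND5 lies above 0 in all columns but the as-deposited one, where it is at -0.44.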

How the data were processed

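Biotin-labelled cRNA made from 6 ug of total RNA per sample was hybridised to 2 Affymetrix arrays, 1 per group by the treatment label, per the labels' protocols. The deposited values are linear signal intensities, 1 per probe set; the software named is MAS5, per the submitters' processing notes, and its version, scaling target and detection calls are not given in the sources used here. Of 22625 probe sets, 77 were manufacturer's controls. Of the 22548 for worm transcripts, 20766 named 1 gene, 887 several and 895 none; 20701 of those with 1 gene matched the WBcel235 gene table by identifier, which served for names and gene order only.

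The a-SWCNT array was multiplied by 1 factor to match the control array in 2% trimmed mean over all probe sets, signals were floored at the pooled worm median, and a gene's value is the mean log2 ratio of its probe sets measured on at least 1 array. No test was possible with 1 array per group. A call is a ratio of at least 2-fold. The code was tested on simulated data. Python 3.11.15, numpy 2.4.6, pandas 2.3.3 and statsmodels 0.14.6 were used.

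The members, lists and settings were chosen with earlier results of these data known. Named were all members, up to 2 highest and 2 lowest genes per list measured on both arrays, the 5 nearest genes, and 9 genes by name, of which pnpt-1 had no probe set of its own. Names with no match were 2 nuclear subunits, 9 of the maintenance list and 2 tissue markers. Alternatives were other scalings, floors, thresholds and choices of probe set.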

Additional observations from a re-analysis of the deposited data

How the results depend on the processing

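The median of the mitochondrial genes (-1.05) lay between -1.22 and -0.92 under the 5 other scalings. Their gap to the nuclear subunits (-1.29) lay between -1.38 and -1.20 under 12 alternatives, but a scaling by 1 factor cancels in it. The gap was therefore -1.29 by construction under each scaling of that kind, and those say nothing about how firm it is. Quantile normalisation gave -1.26 and loess centring -1.29. Values that moved by more than the SD of 1 probe set (0.47) were those of the signals as deposited, by construction. The median was then -2.37 with 7 mitochondrial genes at least 2-fold lower, where 61.9% of all measured genes were. The nuclear median was -1.09, where the median of all genes was -1.16. Scaled to hybridisation controls, the median of all genes was -0.18. At 3-fold, 0 mitochondrial genes were lower, where 0.39% of all measured genes were, against 4 at 2-fold (2.88%). There were 6 at 1.5-fold (11.6% of all genes), 6 with hybridisation controls (4.94%), 5 after loess centring (2.14%) and 5 after quantile normalisation (2.05%). Without letter-suffix probe sets ND1 was lost and the median of the 7 left was -0.96; with the floor at the 75th percentile ND5 was lost and it was -1.14. Over all genes, 270 were at least 2-fold lower (2.88%), against 6439 as deposited, 464 with hybridisation controls, 167 with equal 75th percentiles, 555, 105 and 1923 with the floor at the 25th percentile, at the 75th and without one, 1090 at 1.5-fold and 37 at 3-fold. No paired analysis was possible because each group had 1 array. Dim signals near the floor limit ND5 alone among the 8.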
